A study of Arabidopsis thaliana with 6 samples.

Results

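The transposable element genes of Arabidopsis thaliana are annotated copies of mobile DNA. Members were the rows of the deposited gene count table whose description begins with that term, and those with at least 10 counts summed over the 6 libraries were described. The table of 38192 genes held 3890 such rows. Of these, 307 had a count in any library, 155 had at least 10 counts, and 93 passed the filter on low counts that precedes the test. The 155 make up the set described here, by chromosome and by distance from the centromere. The 1 row with exactly 10 counts, AT2G05290, had 5 in each genotype, and the 1 row with 9 counts, AT3G28153, which was left out, had 3 in the wild type and 6 in the mutant.

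RNA was sequenced from the aerial parts of 9-day-old seedlings kept at 23 ± 2 °C in 16 h of light and 8 h of dark. The 2 groups were wild-type Col, the standard laboratory accession, and cpl2-2, whose genotype is labelled as a knockout of CPL2, with 3 biological replicates each. CPL2 belongs to a family of phosphatases whose known substrate is the tail of RNA polymerase II. These are the only groups of the series, and the labels name no transgene or second mutation for either.

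Transposable elements are usually kept silent in plants by DNA methylation and repressive histone marks, and they crowd into the regions around the centromeres. Copia and Gypsy elements are retrotransposons bounded by long terminal repeats. They are copied through RNA by a reverse transcriptase that starts from a tRNA bound next to the first repeat, often the initiator methionine tRNA in Copia elements. LINE elements are retrotransposons without such repeats, and Sadhu elements are short Arabidopsis retroposons that encode no reverse transcriptase of their own. MULE, hAT, Harbinger and CACTA elements are DNA transposons that move by means of a transposase. In bulk RNA, fewer cells expressing an element and less RNA per cell cannot be told apart.

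The sequences below show the elements on which the results turn, read from the TAIR10.1 genome, whose starts and ends equal those of the deposited table for 3887 of the 3890 rows. AT2G05040, a Gypsy-like gene, and its neighbour AT2G05030 lie on chromosome 2 between copies of a 280-base repeat, which differ at 3 positions, shown in capitals. The first copy lies at chr2:1781546-1781825 and the second at chr2:1786501-1786780, both on the plus strand, and the element spans 5235 bases from repeat to repeat.
AT2G05040 upstream repeat: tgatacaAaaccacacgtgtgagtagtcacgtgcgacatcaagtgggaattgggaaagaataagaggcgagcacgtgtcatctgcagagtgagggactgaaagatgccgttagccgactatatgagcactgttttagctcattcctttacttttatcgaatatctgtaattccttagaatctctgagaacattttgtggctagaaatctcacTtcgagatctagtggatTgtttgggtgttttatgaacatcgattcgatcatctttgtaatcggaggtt
AT2G05040 downstream repeat: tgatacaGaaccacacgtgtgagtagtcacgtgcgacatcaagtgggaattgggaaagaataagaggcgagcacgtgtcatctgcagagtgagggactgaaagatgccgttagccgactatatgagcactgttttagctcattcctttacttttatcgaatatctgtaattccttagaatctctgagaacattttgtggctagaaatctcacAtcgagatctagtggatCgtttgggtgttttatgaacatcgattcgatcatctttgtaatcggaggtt

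Among the 49 Copia members, 35 had a pair of direct repeats of at least 100 bases within the gene or in the 3 kb beside it, and 18 of these carried the sequence complementary to the 3′ end of initiator methionine tRNA, TGGTATCAGAGC, at the inner end of the first repeat. The identity between the terminal repeats of these 18 elements ranged from 91.8% to 100%, with a median of 99.1%. A gene is called where its adjusted p is under 0.05 in edgeR's test of cpl2-2 against the wild type, and genes with too few counts were not tested. Of the 18, 4 were called higher, 3 lower and 6 not called in cpl2-2, and 5 were not tested. Over all 31 tested Copia members 38.7% were called, and over all genes tested 27.3%. A link between the site and a call was not tested. The 7 called elements are shown over 40 bases, from inside the repeat into the element along the element's own strand, with the tRNA site in capitals.
AT3G62455, higher, chr3:23104616-23104655, minus strand: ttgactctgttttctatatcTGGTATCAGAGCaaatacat
AT4G04410, higher, chr4:2189349-2189388, plus strand: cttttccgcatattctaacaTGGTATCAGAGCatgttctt
AT3G60965, higher, chr3:22551455-22551494, minus strand: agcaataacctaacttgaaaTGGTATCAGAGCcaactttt
AT1G47520, higher, chr1:17443213-17443252, plus strand: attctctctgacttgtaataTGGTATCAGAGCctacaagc
AT2G06950, lower, chr2:2863444-2863483, minus strand: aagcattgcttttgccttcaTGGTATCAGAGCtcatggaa
AT4G10690, lower, chr4:6589079-6589118, plus strand: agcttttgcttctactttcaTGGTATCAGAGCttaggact
AT4G16870, lower, chr4:9488439-9488478, minus strand: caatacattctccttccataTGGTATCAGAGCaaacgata

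The same 12 bases occurred in the 300 bases before the start of 43.5% of the 375 Copia rows and 38.8% of the 49 Copia members, against 0.0704% of 34110 nuclear rows that are not transposable element genes. Both strands were searched. Of the 3′ end forms among nuclear methionine tRNA genes, this form was found before the most rows, 162, against at most 2 for any other form. It was chosen for that frequency in transposable element rows, so its share there is not independent of the choice. A match describes the sequence and does not show use of the site.

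Sadhu elements supplied the most abundant member, SADHU1-1 (AT2G10410), and its relatives SADHU1-2 (AT1G30835) and SADHU1-3 (AT5G28626). SADHU1-1 was 70.8% identical to SADHU1-2 over 788 aligned bases and 71.5% identical to SADHU1-3 over 431 bases, so at this divergence reads of the 3 genes differ at many positions. SADHU1-2 is annotated on the strand opposite to its relatives and is shown on the minus strand. Capitals mark the 34 of 100 aligned positions at which the 3 genes differ.
SADHU1-1, chr2:4006578-4006677, minus strand: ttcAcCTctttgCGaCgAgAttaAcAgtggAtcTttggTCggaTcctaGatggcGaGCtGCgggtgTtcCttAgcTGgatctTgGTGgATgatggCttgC
SADHU1-2, chr1:10967418-10967517, minus strand: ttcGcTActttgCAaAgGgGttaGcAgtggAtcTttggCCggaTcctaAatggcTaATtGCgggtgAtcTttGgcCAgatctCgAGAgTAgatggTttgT
SADHU1-3, chr5:10632600-10632699, plus strand: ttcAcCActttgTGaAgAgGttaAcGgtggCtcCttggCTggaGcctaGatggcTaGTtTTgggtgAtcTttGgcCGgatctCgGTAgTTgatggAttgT

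Library totals ran from 18299294 to 21098728 counts. CPL2 (AT5G01270) was counted 391, 378 and 393 times in wild-type and 198, 229 and 222 times in mutant libraries, so each mutant library was below each wild-type library. Log2 ratios are those of cpl2-2 over the wild type. Levels are given as counts per 1000000 counts of a library (CPM) after scaling with TMM factors, a normalization that removes differences in overall composition between libraries. Of 5 leaf photosynthesis markers, 4 were called lower in cpl2-2, and their summed level was 44804 to 46161 CPM in the wild type and 36878 to 38527 CPM in cpl2-2. Of 6 root markers, CASP1 was called higher (0.538 ± 0.17 and 1.29 ± 0.32 CPM, SD, n = 3), EXPA7 was at 0 in every library, and the summed level was 309 to 324 CPM in the wild type and 304 to 329 CPM in cpl2-2. Nearly all of this sum was PYK10, which averaged 313 and 308 CPM and was not called. The next most abundant root marker, ESB1, averaged 3.43 and 4.13 CPM and was not called either. Of 5 pollen and anther markers, AMS and MS1 were at 0 in every library and the sum was at most 0.587 CPM. The part of tissue composition in the results for the transposable element genes was not tested.

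Most transposable element rows had no reads. A count was found for 177, 175 and 177 rows of wild-type and 192, 191 and 181 rows of mutant libraries, so every mutant library showed more rows than every wild-type library. The rows with 1 to 9 counts in all numbered 152 and together held 169 wild-type and 227 mutant counts. Transposable element rows took 0.0578%, 0.0593% and 0.0585% of all wild-type counts and 0.0678%, 0.0699% and 0.0673% of all mutant counts, a difference of 0.00979 percentage points without overlap. These shares are of unscaled library totals. After TMM scaling the summed level was 600 ± 5.8 CPM in the wild type and 668 ± 15 CPM in cpl2-2 (SD, n = 3). That rise was smaller in proportion, also without overlap. Counts were concentrated in a few members, and the 5 most abundant supplied 34.7% of all counts of the 155.

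Of the 93 tested members, 21 were called higher and 9 lower in cpl2-2 at an adjusted p under 0.05 (edgeR's quasi-likelihood test, adjusted over all 19302 genes tested), and 63 were not called. This is 32.3% called, against 27.3% of all genes tested, 14.1% called higher and 13.3% lower. Other tested genes of similar abundance, within the range from the 10th to the 90th percentile of the members' mean CPM, were called in 17.3% of cases, with 11.3% higher and 6.04% lower. The 32.3% covers all 93 tested members, also those outside that range, so the 2 shares are not over the same range of abundance. The median log2 ratio was 0.10 over the tested members and -0.002 over all genes tested. At least 2-fold changes were called higher for 7 of the 93 members and lower for 7 of the 93. Over all genes tested the shares were 3.07% and 0.508%. Those genes were more abundant, with a median of 13.3 CPM against 3.88 CPM for the tested members. No 2-fold share was taken at matched abundance. The CPM of the genotypes did not overlap for 39 members (41.9%; background 39.0%), 25 of them higher and 14 lower in cpl2-2, and 9 of the 39 were not called.

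**Figure D1:**
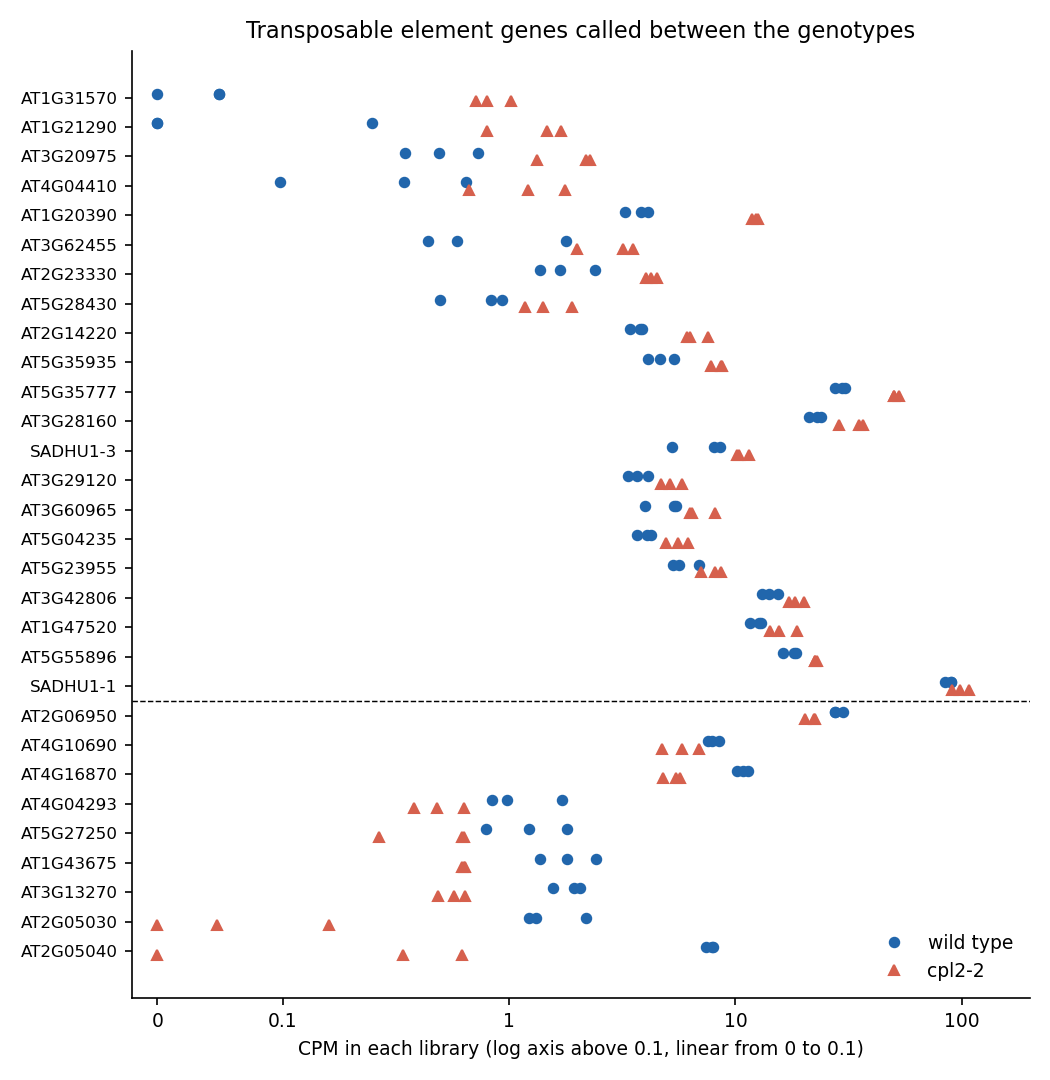
CPM of the 30 called transposable element genes in each library, on an axis that is logarithmic above 0.1 CPM and linear below it; circles are wild-type and triangles cpl2-2 libraries, and genes are ordered by log2 ratio with the 21 higher ones above the dashed line. The genotypes do not overlap for any of the 30, and AT2G05040 and AT2G05030 at the bottom and AT1G31570 and AT1G21290 at the top are the most widely separated.

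The falls were led by 1 element. AT2G05040 (chromosome 2, 1783119 to 1786463, 2.44 Mb from the centromere), whose predicted product matches the Gag-Pol polyprotein of the yeast retrotransposon Ty3, was counted 161, 162 and 152 times in wild-type and 0, 13 and 7 times in mutant libraries. AT2G05030 (1781886 to 1782503), a short gene with no protein match between the first repeat and AT2G05040, had 44, 25 and 27 counts and then 3, 1 and 0. Both genes were thus low or absent in each mutant library, and their highest mutant values were far below their lowest wild-type values.

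AT2G05040 went from 7.76 ± 0.30 to 0.319 ± 0.31 CPM (log2 ratio -4.53, SE 0.32, adjusted p = 2.75e-16), and its summed counts were 23.4 times as high in the wild type as in cpl2-2 (95% exact counting interval 15 to 38.7). AT2G05030 went from 1.57 ± 0.53 to 0.0692 ± 0.082 CPM (log2 ratio -4.44, SE 0.63, adjusted p = 1.77e-07; count ratio 23.7, interval 8.95 to 88.7). Both genes therefore fell by a similar factor, although they share a repeat pair and are not independent. Their mutant counts would not have passed the filter on low counts, so both were tested only through the wild-type libraries. Per kb of gene length the pair stood at 2.32 and 2.54 CPM in the wild type. Counts in cpl2-2 differed between libraries, and the log2 ratio of AT2G05040 ran from -5.40 without cpl2-2 replicate 2 to -4.0 without cpl2-2 replicate 1, while that of AT2G05030 was -5.71 without cpl2-2 replicate 1. With limma-voom it was -5.34 for AT2G05040. The gene AT2G00410, which lies 3 bases before AT2G05030 on the opposite strand and covers the first repeat, was counted 13, 5 and 7 times in wild-type and 19, 12 and 14 times in mutant libraries and was not called (log2 ratio 0.86, SE 0.51, adjusted p = 0.22).

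The other 7 members called lower fell less. AT3G13270, which matches a replication factor A domain, was counted 39, 42 and 32 times in wild-type and 12, 12 and 10 times in mutant libraries (log2 ratio -1.70, SE 0.38, adjusted p = 0.000461). AT1G43675, a 377-base row with no protein match, had 49, 37 and 28 counts and then 12, 13 and 13 (-1.56, SE 0.38, adjusted p = 0.0012). In both, the mutant libraries were close to each other and below all wild-type libraries.

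AT4G16870, a Copia element beside the disease resistance gene RPP4, was the most abundant member of chromosome 4, with 11.4, 10.2 and 10.8 CPM in the wild type and 5.71, 5.45 and 4.80 CPM in cpl2-2 (log2 ratio -1.02, SE 0.14, adjusted p = 7.33e-08). RPP4 (AT4G16860), 68 bases away and upstream on the same strand, had 33.5 ± 0.77 and 31.1 ± 0.88 CPM and was not called (log2 ratio -0.11, SE 0.07, adjusted p = 0.26). The first repeat of AT4G16870, at chr4:9488459-9488588, lies almost wholly within RPP4, which is annotated from 9488466. Reads of the element from that repeat could thus be counted for RPP4. The Copia element AT2G06950, among the 5 most abundant members, had 27.5, 29.8 and 27.4 CPM in the wild type and 22.2, 20.4 and 22.5 CPM in cpl2-2 (-0.38, SE 0.08, adjusted p = 0.000184). Its terminal repeats of 732 bases are identical, and those of AT4G16870, of 130 bases, are identical too, so reads that fall within a repeat have more than 1 possible origin.

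The remaining 3 falls rested on fewer counts or smaller differences. AT5G27250, matching a Harbinger-type DDE endonuclease, was counted 16, 37 and 25 times in wild-type and 5, 13 and 13 times in mutant libraries (-1.31, SE 0.44, adjusted p = 0.0217). Its call was lost without cpl2-2 replicate 1 (adjusted p = 0.13) or wild-type replicate 2 (adjusted p = 0.19), and 96.9% of its span has a copy of at least 97% identity elsewhere in the genome, so reads could be split. AT4G04293, with no protein match, had 17, 20 and 35 counts and then 9, 8 and 13 (-1.23, SE 0.44, adjusted p = 0.0323), a call that did not hold without wild-type replicate 3 (adjusted p = 0.26), cpl2-2 replicate 1 (0.087) or cpl2-2 replicate 2 (0.13), or with DESeq2 (0.062) or limma-voom (0.051). The Copia element AT4G10690 had 153, 173 and 162 counts and then 129, 123 and 98 (-0.46, SE 0.15, adjusted p = 0.0224), and was not called without cpl2-2 replicate 3 (adjusted p = 0.15) or wild-type replicate 2 (0.084), or with library totals as the only scaling (0.053).

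The largest rises began from almost no reads. AT1G31570 (chromosome 1, 11302782 to 11309164, 4.33 Mb from the centromere), with no protein match, was counted 0, 1 and 1 times in wild-type and 15, 15 and 21 times in mutant libraries. AT1G21290 (chromosome 1, 7449964 to 7450695), a Copia fragment, was counted 5, 0 and 0 times in wild-type and 15, 31 and 35 times in mutant libraries. Each mutant library was above every wild-type library for both genes, and all wild-type counts of AT1G21290 were in replicate 1.

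For AT1G31570 the log2 ratio was 4.45 (SE 0.80, adjusted p = 1.67e-05) and the ratio of summed counts 25.8 (95% exact counting interval 6.8 to 219). For AT1G21290 it was 3.93 (SE 0.66, adjusted p = 5.58e-06; ratio 16.4, interval 6.75 to 51.9), 4.58 with limma-voom, and 7.76 without wild-type replicate 1, when the wild type was left with no count. Both genes passed the filter on low counts only through the cpl2-2 libraries. Their ratios, intervals and adjusted p are therefore not independent of the high mutant counts. Even in cpl2-2 both were rare transcripts, at 0.844 ± 0.16 and 1.32 ± 0.47 CPM. Of the nearby Copia members on chromosome 1, AT1G21260 (log2 ratio 0.07, adjusted p = 0.77) and AT1G21220 (0.60, adjusted p = 0.36) were not called.

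AT1G20390 (chromosome 1, 7065494 to 7071561, 8.57 Mb from the centromere), a Gypsy element whose product matches the polyprotein of the Drosophila transposon opus, rose more than 3-fold from a moderate level. It stood at 3.81, 4.10 and 3.26 CPM in wild-type seedlings and 11.8, 12.5 and 12.4 CPM in cpl2-2 (3.29-fold; log2 ratio 1.72, SE 0.15, adjusted p = 1.61e-13). The lowest mutant library stood well above the highest wild-type library, and values within each group were close. The other tested Gypsy member, AT3G42052, had 6.69 and 5.76 CPM on average and was not called (-0.21, SE 0.16, adjusted p = 0.36), so the 3 tested Gypsy members comprised 1 rise, 1 fall and 1 without a call.

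Copia elements made up 9 of the 21 rises and 3 of the 9 falls, from 31 of the 93 tested members. Of these 31, 38.7% were called, against 27.3% of all genes tested. AT5G35777 (chromosome 5, 13949228 to 13953802), the second most abundant member, was counted 618, 608 and 564 times in wild-type and 937, 1061 and 1086 times in mutant libraries (log2 ratio 0.80, SE 0.07, adjusted p = 5.96e-14). AT2G23330 had 1.68, 1.37 and 2.39 CPM and then 4.48, 4.03 and 4.22 CPM (1.22, SE 0.24, adjusted p = 7.42e-05). AT2G14220 had 3.86, 3.41 and 3.80 CPM and then 6.13, 6.31 and 7.57 CPM (0.85, SE 0.18, adjusted p = 0.000152). None of the 3 overlapped between the genotypes.

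AT4G04410, a Copia element with identical terminal repeats of 391 bases, was counted 13, 7 and 2 times in wild-type and 33, 14 and 25 times in mutant libraries (1.72, SE 0.50, adjusted p = 0.00715). The wild-type maximum of 0.643 CPM and the mutant minimum of 0.664 CPM nearly touched, and the call was lost without cpl2-2 replicate 1 (adjusted p = 0.096) or wild-type replicate 3 (0.073). Its log2 ratio was 2.42 without wild-type replicate 1. AT3G20975, with no protein match, had 7, 15 and 10 counts and then 25, 46 and 47 (1.88, SE 0.40, adjusted p = 0.000194). It overlaps AT3G20978 on the opposite strand, which had at most 5 counts in a library. The weakest of the 10 largest rises was AT5G28430 (0.99, SE 0.39, adjusted p = 0.0494), with 10, 17 and 19 counts and then 22, 40 and 29. It was called in 1 of 11 alternative fits, lost with each of the 6 libraries left out in turn, and its adjusted p ranged from 0.032 to 0.24.

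Of 10 LINE members tested, 4 rose, 0 fell and 6 were not called, and the median log2 ratio was 0.45. This is 40% called, against 27.3% of all genes tested, of which 14.1% were called higher. A difference of LINE members from other genes was not tested. AT3G28160, the most abundant member of chromosome 3, was counted 465, 433 and 492 times in wild-type and 536, 769 and 727 times in mutant libraries (log2 ratio 0.56, SE 0.08, adjusted p = 3.23e-07), and 39.6% of its span has a near-identical copy. AT5G55896 rose as well, with means of 17.7 ± 1.3 and 22.7 ± 0.24 CPM (0.36, SE 0.09, adjusted p = 0.00131). The calls of the other 2, AT5G23955 (0.42, adjusted p = 0.0366) and AT5G04235 (0.48, adjusted p = 0.0439), were close to the threshold, and each was lost without cpl2-2 replicate 1 (adjusted p = 0.094 and 0.17), cpl2-2 replicate 3 (0.14 and 0.090), wild-type replicate 2 (0.12 and 0.079) or wild-type replicate 3 (0.14 and 0.13). Both were lost with DESeq2 (0.069 and 0.070), and AT5G04235 also without wild-type replicate 1 (0.061) and with limma-voom (0.0501).

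Sadhu elements were the class most often expressed, with 8 of 16 rows above 10 counts, and all 8 were tested. SADHU1-1 (chromosome 2, 4005995 to 4007044, 0.21 Mb from the centromere) had 84.6, 89.4 and 89.4 CPM in the wild type and 90.6, 108 and 98.8 CPM in cpl2-2 (log2 ratio 0.18, SE 0.05, adjusted p = 0.00673). The genotypes did not overlap but lay close together, and the call was lost without cpl2-2 replicate 2 (adjusted p = 0.12) or wild-type replicate 1 (0.064). At 83.6 CPM per kb of gene length it exceeded the next 4 members by mean CPM, which stood between 6.39 and 10.6 CPM per kb in the wild type.

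SADHU1-3 had 5.24, 8.54 and 8.04 CPM and then 10.4, 11.4 and 10.2 CPM (0.55, SE 0.14, adjusted p = 0.00222; without wild-type replicate 1, adjusted p = 0.056). SADHU1-2, from the same subfamily, had 9.98, 11.8 and 15.3 CPM and then 12.8, 10.5 and 14.4 CPM and was not called (0.03, SE 0.13, adjusted p = 0.91). The other 5 Sadhu members were not called and had log2 ratios from -0.45 to 0.52. Of the 8 Sadhu members tested, 25% were called, against 27.3% of all genes tested. Differences between Sadhu members in their response were not tested.

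Of 11 DNA transposon members tested, 3 (27.3%) were called, the same share as over all genes tested. They were 1 of 6 hAT, 1 of 4 MULE and 1 of 1 Harbinger members, and the Harbinger member was AT5G27250, the fall described above. AT1G80020, which resembles the domesticated hAT transposase DAYSLEEPER and was the most abundant member of chromosome 1, had 31.4, 33.6 and 32.9 CPM in the wild type and 32.6, 33.2 and 30.1 CPM in cpl2-2, and was not called (log2 ratio -0.03, SE 0.07, adjusted p = 0.80). The hAT member AT3G29120 was called higher (0.50, SE 0.19, adjusted p = 0.0437), but its whole span has a near-identical copy. Without cpl2-2 replicate 2 (adjusted p = 0.18), cpl2-2 replicate 3 (0.077), wild-type replicate 1 (0.14) or wild-type replicate 2 (0.092), or with DESeq2 (0.071), it was not called. The MULE element AT3G42806, 0.086 Mb from the centromere of chromosome 3, rose as well, with means of 14.2 ± 1.1 and 18.6 ± 1.4 CPM (0.39, SE 0.10, adjusted p = 0.00195) and the other 3 MULE members tested were not called. The only CACTA member was not tested.

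**Figure D2:**
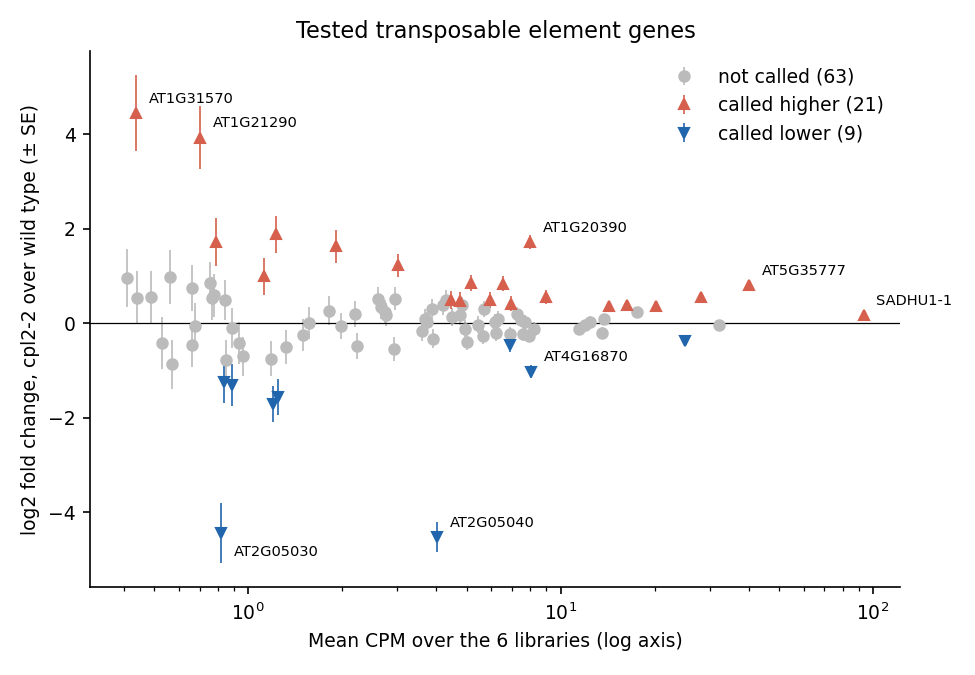
Log2 ratio of cpl2-2 over the wild type (± SE, from the quasi-likelihood fit over 3 libraries a genotype) against mean CPM on a log axis for the 93 tested members, with called members as coloured triangles. The widest changes, at 4.45 and -4.53, are in members under 10 CPM, and SADHU1-1 at the right was called with a log2 ratio of 0.18.

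Summed over all rows of a class, Copia transcripts stood at 201 ± 4.8 CPM in the wild type and 233 ± 6.2 CPM in cpl2-2 (SD, n = 3), LINE transcripts at 63.2 ± 3.5 and 82.2 ± 2.4 CPM, and Sadhu transcripts at 125 ± 6.2 and 140 ± 8.1 CPM. In each of these classes every mutant library was above every wild-type library, also relative to the unscaled library totals. A large part of each rise came from 1 member. Within the Copia sum, AT5G35777 went from 29.2 to 51.0 CPM on average. AT3G28160 went from 22.7 to 33.4 CPM within the LINE sum, and SADHU1-1 from 87.8 to 99.1 CPM within the Sadhu sum. The hAT sum was 62.5 ± 1.5 and 63.1 ± 6.1 CPM, and the Gypsy sum, made of a rise and a fall, 19.1 ± 1.3 and 19.1 ± 1.4 CPM. Both overlapped between the genotypes. The MULE sum was 28.5 ± 2.1 and 33.1 ± 1.4 CPM without overlap, and AT3G42806 alone went from 14.2 to 18.6 CPM within it. The Harbinger sum went the other way, at 2.45 ± 0.033 and 1.47 ± 0.72 CPM, also without overlap and also relative to the unscaled totals.

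**Figure D3:**
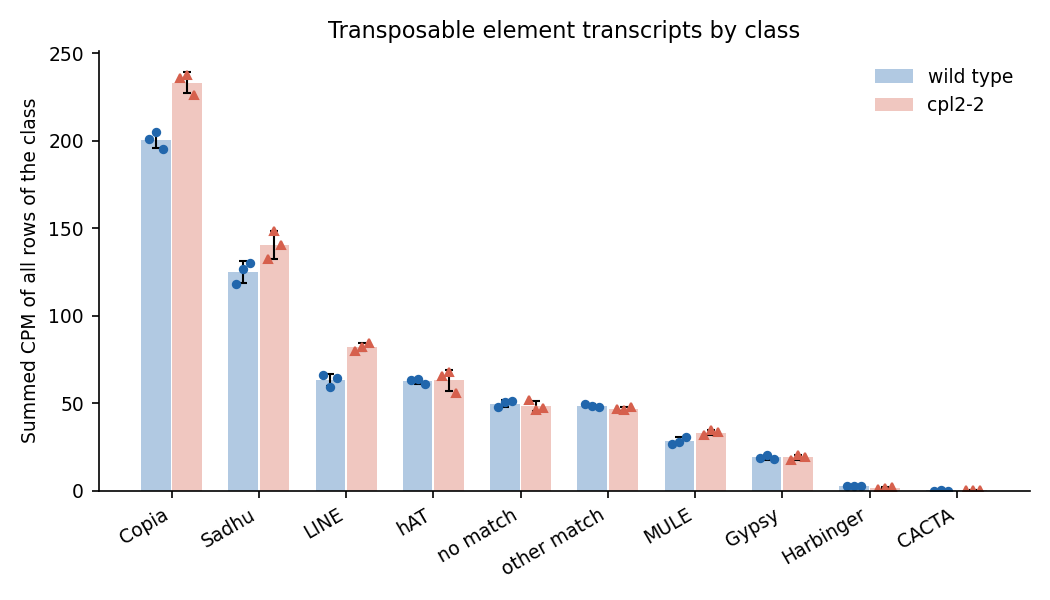
Summed CPM of all rows of each class, with bars for the mean and error bars for the SD of 3 libraries and points for single libraries; "no match" means no protein match in the description and "other match" a match that names no class. LINE sums lie at 63.2 and 82.2 CPM without overlap, whereas hAT and Gypsy sums overlap between the genotypes.

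Rows with reads were a larger share far from the centromeres than near them. The reference annotation marks no centromere, so its position was taken as the middle of the 1 Mb window holding the most transposable element rows, which gave 15.6, 4.22, 14.8, 3.98 and 11.9 Mb for chromosomes 1 to 5. Within 2 Mb of it lay 2599 of the 3890 rows (66.8%), of which 47 (1.81%) had at least 10 counts. Between 2 and 5 Mb, 45 of 926 rows (4.86%) did, and beyond 5 Mb 63 of 365 rows (17.3%).

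Within 2 Mb, 32 members were tested, with 7 called higher and 3 lower. At 2 to 5 Mb, 23 were tested, with 6 higher and 4 lower, and beyond 5 Mb 38 were tested, with 8 higher and 2 lower. Of all tested genes in the same zones, 26.1%, 27.1% and 27.5% were called. Of the 30 called members, 10 (33.3%; 95% exact binomial interval 17.3% to 52.8%) were within 2 Mb. Of the 93 tested members, 32 lay there, a slightly larger share, and of the 155 members 30.3%. The interval treats the 30 as independent, although AT2G05030 and AT2G05040 share a repeat pair. Of all tested nuclear genes 3.51% lay there, but the centromere was itself placed at the densest window of transposable element rows. The share depended on the distance chosen, with 10% within 1 Mb and 53.3% within 3 Mb.

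**Figure D4:**
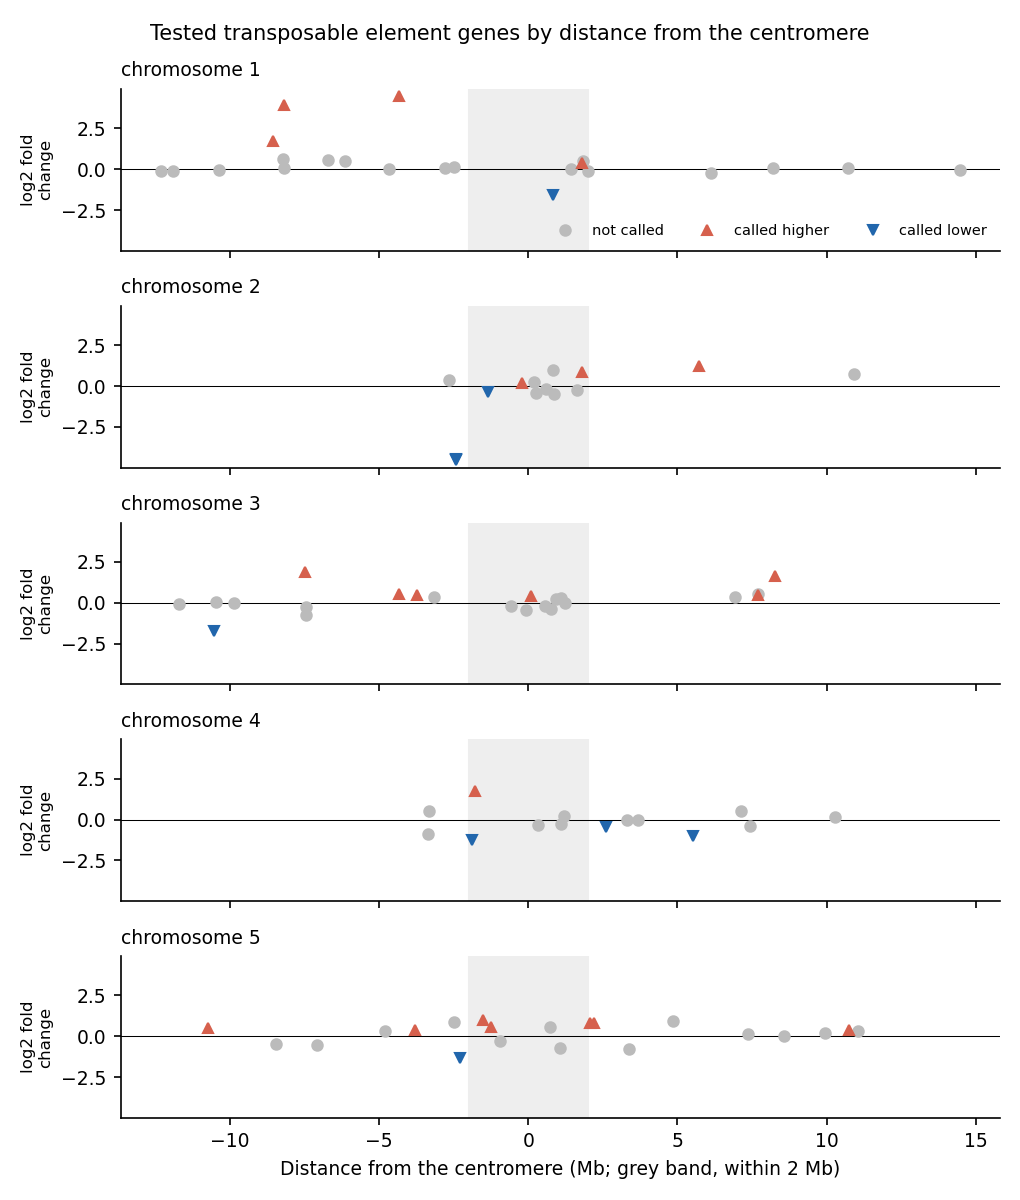
Log2 ratio of cpl2-2 over the wild type for the 93 tested members against signed distance from the centromere in Mb, 1 panel a chromosome, with the band within 2 Mb in grey. Calls in both directions lie inside and outside the band. On chromosome 5, 7 called members are higher and 1 is lower, 38.1% of the 21 tested, against 27.3% of all genes tested.

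Counts and summed levels were also taken by chromosome. On chromosome 5, 39 of 801 rows had at least 10 counts and 21 were tested, with 7 called higher and 1 lower, and the summed level of its rows was 112 ± 3.3 CPM in the wild type and 150 ± 1.1 CPM in cpl2-2. Chromosome 4 had 20 such members, 14 tested, 1 higher and 3 lower, and 55.9 ± 2.1 and 47.3 ± 3.8 CPM. In chromosome 5 every mutant library was above, and in chromosome 4 below, every wild-type library, which also held relative to the unscaled totals. AT5G35777 accounts for 29.2 of the 112 CPM on chromosome 5 and for 51.0 of the 150 CPM. On chromosome 4, AT4G16870 accounts for 10.8 of the 55.9 CPM and 5.32 of the 47.3 CPM, and AT4G10690 for 7.96 and 5.82 CPM. The other counts were 22 tested with 4 higher and 1 lower on chromosome 1, 14 tested with 3 and 3 on chromosome 2, and 22 tested with 6 and 1 on chromosome 3. The summed levels of chromosome 1 (144 ± 1.3 and 159 ± 3.1 CPM) and chromosome 3 (130 ± 3.2 and 153 ± 11 CPM) did not overlap either, and those of chromosome 2 did. The shares of tested members called on chromosomes 1 to 5 were 22.7%, 42.9%, 31.8%, 28.6% and 38.1%, against 27.3% of all genes tested. No difference between chromosomes was tested.

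The 30 called members had 27 flanking genes that are not members within 1 kb, of which 11 were tested, 2 called higher and 2 lower (36.4%). Among the flanks of all 93 tested members, 20 of 52 were called (38.5%), against 27.3% of all genes tested. The Copia element AT3G62455 was counted 36, 12 and 9 times in wild-type and 60, 74 and 41 times in mutant libraries (log2 ratio 1.63, SE 0.35, adjusted p = 0.000237), and 2.48 without wild-type replicate 1. AT3G62460, annotated as a putative endonuclease or glycosyl hydrolase, ends 84 bases upstream of it on the same strand and had 335, 279 and 289 counts and then 536, 586 and 525 (0.89, SE 0.09, adjusted p = 3.92e-11). Both the element and the gene upstream were higher in every mutant library. The element's first terminal repeat, at chr3:23104638-23104853, lies mostly within AT3G62460, which is annotated from 23104665 to 23105650. Reads of the element from that repeat could thus be counted for AT3G62460, so the values of the pair are not fully separate.

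AT5G35935, a Copia element, had 5.34, 4.10 and 4.63 CPM and then 8.64, 8.73 and 7.76 CPM (0.84, SE 0.16, adjusted p = 3.71e-05). The jacalin-related lectin gene AT5G35940, 682 bases away on the opposite strand, had 3, 0 and 5 counts and then 21, 40 and 31 (3.47, SE 0.56, adjusted p = 2.72e-06). AT1G43675 lies 371 bases after the cytosolic fructose-1,6-bisphosphatase gene FBP (AT1G43670) on the same strand, which fell from 570 ± 5.6 to 441 ± 9.4 CPM (-0.37, SE 0.03, adjusted p = 8.76e-15). These 3 pairs moved in the same direction. In the fourth, AT5G04235 was called higher and PAL3 (AT5G04230), a phenylalanine ammonia-lyase gene 329 bases away, fell from 28.6 ± 0.96 to 21.2 ± 1.1 CPM (-0.44, SE 0.08, adjusted p = 2.17e-05).

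Of the 30 called members, 3 overlap another annotated gene, each on the opposite strand. The partners AT2G10405, AT3G20978 and AT3G60961 had at most 5 counts in a library, and whether the counting used strand is not known. AT3G60965, which lies within AT3G60961, was called higher (0.49, SE 0.17, adjusted p = 0.0264), and not without cpl2-2 replicate 1 (adjusted p = 0.18) or wild-type replicate 3 (0.16). AT1G47520 rose too, with means of 12.5 ± 0.74 and 16.1 ± 2.3 CPM (0.37, SE 0.11, adjusted p = 0.00704) and was not called without cpl2-2 replicate 2 (adjusted p = 0.12). No stretch with a near-identical copy elsewhere in the genome was found in 23 of the 30.

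The 62 members with at least 10 counts that the filter removed were described by their summed counts. The 95% exact interval of the ratio of counts, cpl2-2 over wild type, lay above 1 for 10, below 1 for 10 and included 1 for 42. These intervals cover counting error only and are narrower than the spread between replicates would make them. AT1G64240, a MULE element, was counted 0, 2 and 0 times in wild-type and 10, 6 and 12 times in mutant libraries, a ratio of 14.2 (interval 3.58 to 123). AT2G04135, matching Copia, had 0, 1 and 2 counts and then 10, 5 and 11 (ratio 8.78, interval 2.69 to 45.3), and AT2G24660, also Copia, 0, 1 and 0 and then 5, 2 and 3 (ratio 10.1, interval 1.44 to 440).

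In the other direction, AT2G05660 was counted 2, 15 and 10 times in wild-type libraries and 0 times in each mutant library, and was at least 8.88-fold lower in cpl2-2 taking 3 counts over the 3 mutant libraries as the limit of a count of 0. Near-identical copies cover 73.7% of its span. AT5G01335, with a reverse transcriptase domain, had 1, 4 and 7 counts and then 0 in each mutant library, at least 3.95-fold lower, and lies 23506 bases from CPL2. AT1G43590, a Harbinger element, had 14, 0 and 16 counts and then 2, 2 and 0 (7.40 times as high in the wild type, interval 2.61 to 28.9), with no wild-type count in replicate 2. The untested members named here and above reached 10 counts only through the genotype in which they were higher. Their ratios are not independent of that entry. When every gene with at least 10 counts was fitted, 155 members were tested, and 22 were called higher and 13 lower. These 35 of 155 were a smaller share than the background of 24.6% in that fit. Among the 93 members tested in the main fit, the share called was above its background (32.3% against 27.3%). In the wider fit, 2 of the 62 were among those higher and 4 among those lower.

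Of 39 listed genes that act in the silencing of transposable elements or oppose it, all tested, 2 were called higher, 5 lower and 32 not called (17.9% called, against 27.3% of all genes tested), and the median log2 ratio was -0.027. The 5 lower were the CG methyltransferase gene MET1 (44.2 ± 5.0 and 34.2 ± 1.6 CPM; log2 ratio -0.37, SE 0.07, adjusted p = 5.64e-05), the non-CG methyltransferase genes CMT3 (-0.36, SE 0.09, adjusted p = 0.00095) and CMT2 (-0.28, SE 0.11, adjusted p = 0.0463), VIM1, a cofactor of CG methylation (-0.27, SE 0.08, adjusted p = 0.0123), and FAS1, a chromatin assembly factor gene (-0.57, SE 0.16, adjusted p = 0.00505). The DNA demethylase gene ROS1, which opposes silencing, was counted 447, 503 and 459 times in wild-type and 630, 686 and 737 times in mutant libraries (0.56, SE 0.08, adjusted p = 5.08e-08), and SUVH9, which acts in RNA-directed DNA methylation, was the other gene called higher (0.18, SE 0.07, adjusted p = 0.0382). MET1, CMT3 and ROS1 kept their calls in all 11 alternative fits. CMT2 lost its call in 8 of them (adjusted p up to 0.23), SUVH9 in 6 (up to 0.19), VIM1 in 3 (library totals, without cpl2-2 replicate 2 or wild-type replicate 1, up to 0.11) and FAS1 in 1. Without cpl2-2 replicate 1 the calls numbered 4 in place of 7, with CMT2, SUVH9 and FAS1 lost (adjusted p = 0.16, 0.082 and 0.051). The part of these genes in the changes of the transposable element genes was not tested.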

How the data were processed

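RNA-seq of aerial seedling parts, made with a kit that keeps strand per the labels' protocols, gave 6 libraries of 18299294 to 21098728 counts. The authors deposited whole-number read counts per gene with no normalization. Per the submitters' processing notes, reads were aligned with HISAT2 2.0.5 to TAIR10. The counting program, its use of strand and its handling of reads with several matches were not stated in those sources. Overlapping genes and near-identical copies are uncertain. No other columns of sample values were present.

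Counts were tested with edgeR 4.0.16 in R 4.3.3 (quasi-likelihood F test, genotype the only term, TMM factors, filterByExpr), with Benjamini-Hochberg adjustment over 19302 genes and a threshold of 0.05. An adjusted p of a single gene comes from this test unless the sentence names an alternative or a library left out, and those fits were edgeR's quasi-likelihood test too except where DESeq2 or limma-voom is named. The filter can be passed through the libraries of a single genotype, so a member near 0 in the other genotype entered the test through its high group. The SE of a log2 ratio is its size divided by the square root of F. Alternatives were DESeq2 1.42.0, limma-voom (limma 3.58.1), library totals, a filter of 10 counts, a replicate block and leaving out each library. The scripts were tested on simulated data.

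Symbols came from RefSeq TAIR10.1, matched by locus for 37558 of 38192 rows. Classes were read from protein matches in the deposited descriptions by rules set after those were seen. Repeat pairs (at least 100 bases and 75% identity within the gene or 3 kb beside it) and near-identical copies (at least 100 bases at 97%) were found with blastn 2.17.0 and SADHU1 genes aligned with mafft 7.526.

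Members, lists and rules were chosen with earlier results of these data known. Genes named are the 10 largest rises and 10 largest falls among called members (9 fell), the 5 most abundant, the most abundant of each chromosome, and the 3 largest excesses of counts each way among members not tested. Other members are named for a sequence, a neighbour or their class a choice made with their values in view. Intervals and floors cover counting error only, and at 1 CPM a library holds about 20 counts.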

Additional observations from a re-analysis of the deposited data

How the results depend on the processing

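Over 11 alternative fits, the members called higher in cpl2-2 numbered 16 to 23 and those called lower 8 to 13, against 21 and 9, and each of the 30 called members kept its sign in all 11. Of the 30, 18 were called in every fit and 12 lost the call in at least 1. DESeq2 called 17 and 8, limma-voom 19 and 8, and library totals 23 and 8. Leaving out 1 library gave 16 to 21 higher and 8 to 10 lower, and 4 to 7 listed silencing genes called. The replicate numbers did not pair the samples: the deviations of same-numbered libraries from their group means correlated at -0.012, 0.010 and 0.013 across genes. With the replicate block, 20 members were higher and 9 lower, and AT5G28430 alone lost its call (adjusted p = 0.061). The share of counts from transposable element rows was 0.00979 percentage points higher in cpl2-2, and 0.00823 without SADHU1-1, which by construction removes the most abundant member. Called members within the pericentromeric distance were 33.3% at 2 Mb, 10% at 1 Mb and 53.3% at 3 Mb by construction of the window, and 36.7% with textbook centromere positions. Of the tested members, 23 averaged under 1 CPM, where few counts limit what a fold change shows.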

Other observations

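Members lying near each other did not share a response in every case. On chromosome 3, AT3G20975 rose in cpl2-2, while the Copia members AT3G21010 (log2 ratio -0.26, SE 0.34, adjusted p = 0.63) and AT3G21020 (-0.75, SE 0.37, adjusted p = 0.13) nearby were not called. AT3G21020 was counted 29, 29 and 33 times in wild-type and 19, 13 and 21 times in mutant libraries, so its genotypes did not overlap. On chromosome 1, the MULE members AT1G64240, AT1G64250 and AT1G64270 lie within a short stretch. AT1G64250 was counted 5, 3 and 9 times in wild-type and 10, 7 and 17 times in mutant libraries, and AT1G64270 59, 69 and 91 and then 58, 86 and 88 times. Only AT1G64270 was tested, and it was not called (0.10, SE 0.21, adjusted p = 0.78). Differences in response between these nearby members were not tested.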
